A study of Mus musculus with 4 samples.

Results

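The Cajal-Retzius cell genes are 8 genes that mark one of the earliest neuron types of the cerebral cortex: Reln, Trp73, Lhx1, Lhx5, Calb2, Ebf2, Ebf3 and Nhlh2. They were chosen by symbol as known markers of these cells, not by a measured value, although earlier results of these data were known. They make up 8 of the 27293 genes in the table of 4 RNA-seq libraries. The libraries were made from telencephalic tissue of C57BL/6 mouse embryos at embryonic day 13 (E13), each from 2 ug of total RNA. The groups compared held 2 libraries labelled WT (WT 1 and WT 2) and 2 libraries labelled STINGf/f;Nestin-Cre (cKO 1 and cKO 2). By design, Cre driven by the Nestin promoter deletes the floxed STING gene in neural progenitors of cKO and the cells derived from them. Cells of other origin are meant to keep it. Whether Cajal-Retzius cells had lost STING in these libraries was not tested. The submitters titled WT 2 differently from WT 1, with "nes" in place of "wt", and whether it carried Nestin-Cre is not known here. No label says that the libraries came from separate embryos, although Y-linked counts, given below, set WT 1 and WT 2 apart. The p-values measure the spread between these samples, which may be partly technical.

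Cajal-Retzius cells are born at the edges of the cortex, mainly at the cortical hem, the septum and the border between pallium and subpallium, and spread below the pia to form the marginal zone. They secrete reelin, a large glycoprotein that binds the receptors VLDLR and ApoER2 (encoded by Lrp8) on migrating neurons, leads to phosphorylation of the adaptor DAB1, and guides the layering of the cortical plate. Each of the 8 genes is also used elsewhere, since Ebf and Lhx genes mark several early neuron types, and Calb2 and Reln are later found in interneurons.

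Counts on genes summed to between 17209654 and 18533391 per library. Levels are given as CPM, counts scaled to library size with the TMM factors of edgeR, which lay between 0.989 and 1.01, and 3 counts corresponded to 0.163 to 0.173 CPM. The STING gene, listed as Tmem173, was at 1.15 and 1.03 CPM in WT and 0.984 and 1.23 CPM in cKO, so its gene-level count did not separate the groups and the genotype was taken from the labels. Cortical markers were present in all 4 libraries. The homeobox gene Emx1 was at 101 to 138 CPM and Neurod6, a marker of excitatory neurons, at 459 to 673 CPM. Over the 8 cortical tissue markers no gene was called, with a median log2 fold change of 0.08, or from -0.040 (without WT 1) to 0.18 (without cKO 2) with 1 library left out. WT 1 stood apart in markers of neighbouring tissue, as given below. WT 2 had 0 counts over 4 Y-linked genes against 1848 to 3002 in the other libraries. WT 1 and WT 2 therefore did not come from the same embryo, and sex was not matched between the groups.

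None of the 8 genes passed the test between the libraries labelled cKO and those labelled WT. By the study's rule for differentially expressed genes (DEGs), a fold change of at least 2 with an unadjusted p of at most 0.05, 0 of 8 were called in edgeR's quasi-likelihood test, against 131 of 16145 genes tested (0.811%), 108 lower and 23 higher in cKO. At an unadjusted p under 0.05 the count was also 0 of 8, against 1.23% of all genes, and at an adjusted p under 0.05 it was 0 of 8 against 0% of all genes, each with an adjusted p of 0.9999. DESeq2 likewise called 0 of 8. The log2 fold changes, cKO minus WT, ran from -0.29 (Calb2) to 0.12 (Lhx1), 5 below 0 and 3 above, with a median of -0.03 against -0.01 over all genes. In bulk tissue, fewer cells of a type and less RNA per cell cannot be told apart.

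**Figure D1:**
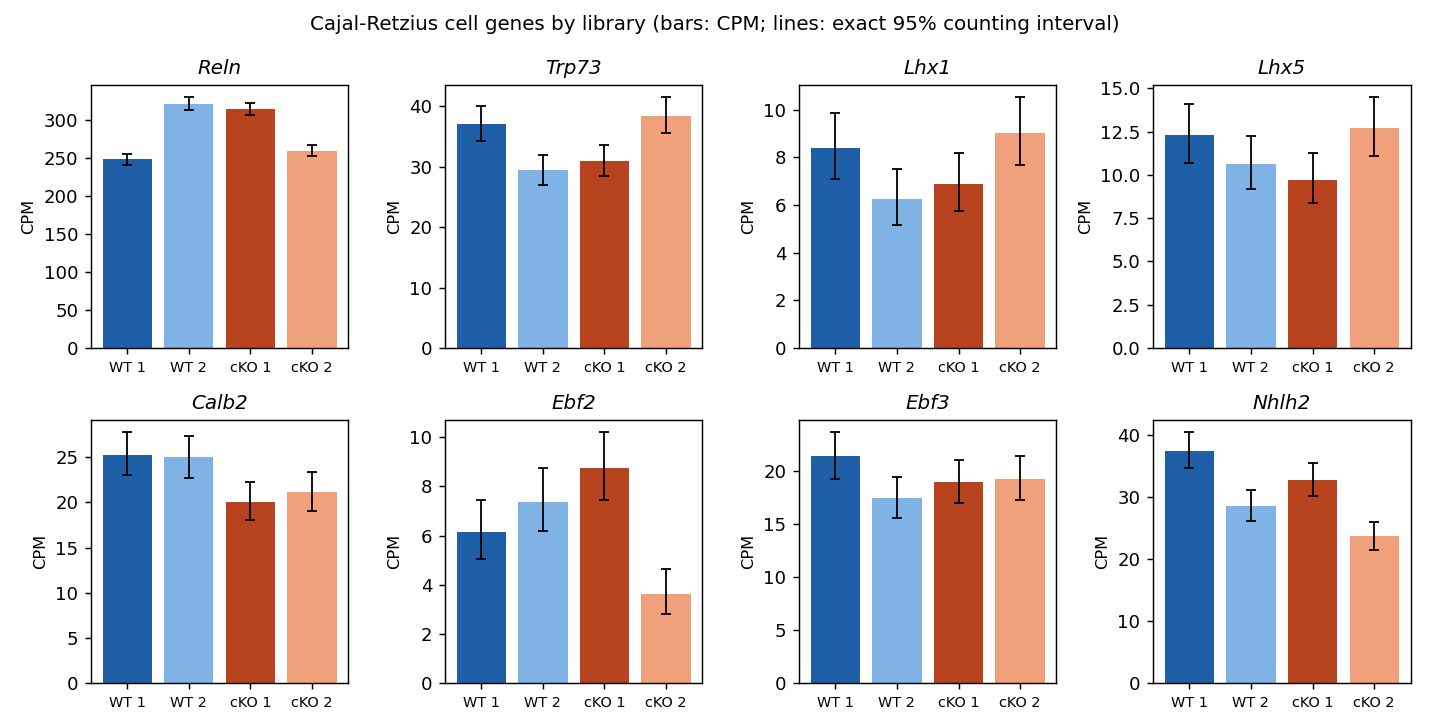
Level of each of the 8 genes in CPM (vertical axes from 0, a scale of its own in each panel) in WT 1, WT 2, cKO 1 and cKO 2, with lines for the exact Poisson 95% interval of the count, which covers counting error only. Calb2 is the only panel where both cKO bars are below both WT bars, and Ebf2 differs most between the cKO libraries, 8.74 against 3.64 CPM.

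Reln, which encodes reelin itself, carried most of the reads of the group. Its 23738 bases of exon lie on chromosome 5 from 21884454 to 22344702 on the minus strand (GRCm38). The level was 248 CPM in WT 1 and 321 CPM in WT 2, and 314 CPM in cKO 1 and 259 CPM in cKO 2. The lowest and the highest library were both WT, and the 2 cKO libraries fell between them, so the groups overlapped fully. The group means were 285 ± 51.6 CPM in WT and 287 ± 38.6 CPM in cKO (SD, n = 2 each). On the log2 scale the fold change was 0.01, with an SE (standard error) of 0.18 and a 95% interval from -0.41 to 0.44, which as a ratio of cKO to WT runs from 0.751 to 1.35. The counting error of a Reln level was small, 1.39% on average, while the 4 libraries varied with a coefficient of variation (CV) of 13.03%.

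Trp73, Lhx1 and Lhx5 encode transcription factors of Cajal-Retzius cells and their precursors, p73 of the p53 family and a pair of LIM-homeodomain proteins. Trp73 (chromosome 4, 154056253 to 154140208, minus strand) was at 37.2 and 29.4 CPM in WT and at 31.0 and 38.5 CPM in cKO. Lhx1 (chromosome 11, 84518284 to 84525535, minus strand) was at 8.40 and 6.25 CPM in WT and at 6.89 and 9.01 CPM in cKO. In both genes the libraries had the same order, cKO 2 highest, then WT 1, cKO 1 and WT 2, and the groups overlapped. Lhx5 (chromosome 5, 120431699 to 120441223, plus strand) was at 12.3 and 10.6 CPM in WT and at 9.73 and 12.7 CPM in cKO. Here too cKO 2 and WT 1 were the highest, with cKO 1 the lowest. The log2 fold changes were 0.06 (SE 0.20) for Trp73, 0.12 (SE 0.29) for Lhx1 and -0.03 (SE 0.24) for Lhx5, with unadjusted p-values of 0.762, 0.690 and 0.896 in edgeR's quasi-likelihood test. Their 95% intervals reached at most 1.72-fold, the upper bound for Lhx1.

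Calb2, which encodes the calcium-binding protein calretinin, was the member with the largest fold change and the only one whose groups did not overlap. The gene (chromosome 8, 110137502 to 110168210, minus strand) was at 25.3 CPM in WT 1, 24.98 CPM in WT 2, 20.1 CPM in cKO 1 and 21.2 CPM in cKO 2. Both WT libraries were higher than both cKO libraries, although the counting intervals of single libraries met, from 22.8 to 27.4 CPM in WT 2 and from 19.1 to 23.4 CPM in cKO 2. The means were 25.1 ± 0.229 and 20.6 ± 0.775 CPM (SD, n = 2 each), a ratio of 0.820 with a 95% interval from 0.616 to 1.09. The log2 fold change of -0.29 (SE 0.18) had an unadjusted p of 0.147 and an adjusted p of 0.9999 in edgeR's quasi-likelihood test, so the difference did not pass. Over all genes tested, both cKO libraries were below both WT libraries in 10.8% of genes and above them in 11%, against 1 and 0 of the 8 genes here.

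Ebf2 and Ebf3 encode helix-loop-helix factors of the early B-cell factor family, which act in differentiating neurons. Ebf2 (chromosome 14, 67233292 to 67430918, plus strand) was at 6.15 CPM in WT 1, 7.39 CPM in WT 2, 8.74 CPM in cKO 1 and 3.64 CPM in cKO 2. The highest and the lowest library were both cKO and differed 2.40-fold, and their counting intervals were apart, from 7.44 to 10.2 CPM in cKO 1 and from 2.81 to 4.64 CPM in cKO 2. The CV of Ebf2 over the 4 libraries was 33.5%, the largest of the 8 genes, against 9.25% expected from counting alone. Its log2 fold change was -0.13 (SE 0.41) with an interval from -1.08 to 0.82, the only one of the 8 that reached beyond 2-fold. The sign turned with the library left out, from -0.89 without cKO 1 to 0.38 without cKO 2. Ebf3 (chromosome 7, 137193673 to 137314445, minus strand) was at 21.3 and 17.4 CPM in WT and at 18.9 and 19.3 CPM in cKO. Both cKO libraries lay between the WT libraries, and with a CV of 8.48% Ebf3 was the least variable of the group (log2 fold change -0.02, SE 0.20).

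Nhlh2 encodes a basic helix-loop-helix factor of newly formed neurons. The gene (chromosome 3, 102010076 to 102015492, plus strand) was at 37.4 CPM in WT 1, 28.5 CPM in WT 2, 32.7 CPM in cKO 1 and 23.6 CPM in cKO 2. WT 1 was the highest and cKO 2 the lowest, and the middle libraries were crossed, with cKO 1 above WT 2. The log2 fold change was -0.23 (SE 0.23), with an interval from -0.75 to 0.30 and an unadjusted p of 0.352 in edgeR's quasi-likelihood test. Leaving out cKO 1 gave -0.48 and leaving out cKO 2 gave 0.0049, and in neither case did it reach 2-fold.

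**Figure D2:**
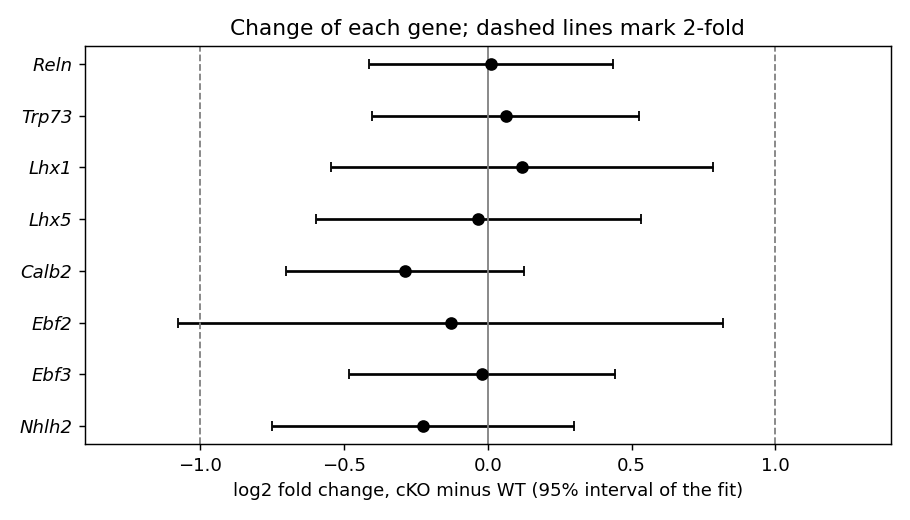
Log2 fold change of each gene, cKO minus WT (horizontal axis; points), with the 95% interval of the edgeR fit (lines) and dashed lines at 2-fold. All 8 intervals cross 0, and 7 lie inside 2-fold, the exception being Ebf2.

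Divided by exon length, the levels of different genes can be set side by side. Calb2 was the highest at 13.1 CPM per kilobase of exon (lowest to highest library, 11.5 to 14.5), and Reln followed at 12.04 (10.5 to 13.5), so these 2 did not differ beyond their spread. The next were Trp73 at 6.15 (5.32 to 6.96) and Nhlh2 at 5.64 (4.36 to 6.90), which overlapped each other but not Reln. Lhx5 at 4.22 (3.62 to 4.72) overlapped Nhlh2 and was above Ebf3 at 2.08 (1.88 to 2.31). Ebf3 in turn overlapped Lhx1 at 1.87 (1.53 to 2.21), and Ebf2 was the lowest at 0.935 (0.525 to 1.26).

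The 8 genes together took between 0.0383% and 0.0444% of all counts. Their summed level was 396 CPM in WT 1, 446 CPM in WT 2, 442 CPM in cKO 1 and 387 CPM in cKO 2, or 421 ± 35.0 CPM in WT and 415 ± 38.8 CPM in cKO (SD, n = 2 each). Reln made up 62.6% to 72.0% of the genes' counts, and the sum, like Reln, was higher in WT 2 and cKO 1 than in WT 1 and cKO 2. Without Reln the sum was 148, 125, 128 and 128 CPM in the same order, with WT 1 the highest and the other 3 libraries within a few CPM of each other. With 2 libraries per group the smallest p of an exact two-sided permutation test is 0.333, so no such test could separate the groups.

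The genes did not move as one across the libraries. When each gene was centred on its own mean log2 CPM, Trp73 and Lhx1 had the most similar profiles of the 28 pairs, with a root-mean-square (RMS) distance of 0.050 over 4 libraries, and Lhx5 lay 0.074 from Trp73. Reln had the opposite profile, low in WT 1 and cKO 2 and high in WT 2 and cKO 1. Its RMS distance to Trp73 was 0.325, and to the mirror image of Trp73 it was 0.044. The pair farthest apart was Lhx1 and Ebf2 at 0.655, since Ebf2 was 0.75 below its mean in cKO 2, where Lhx1 was 0.25 above its own. These profiles rest on 4 points that share library and depth, and 2 of the 4 points come from each group.

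**Figure D3:**
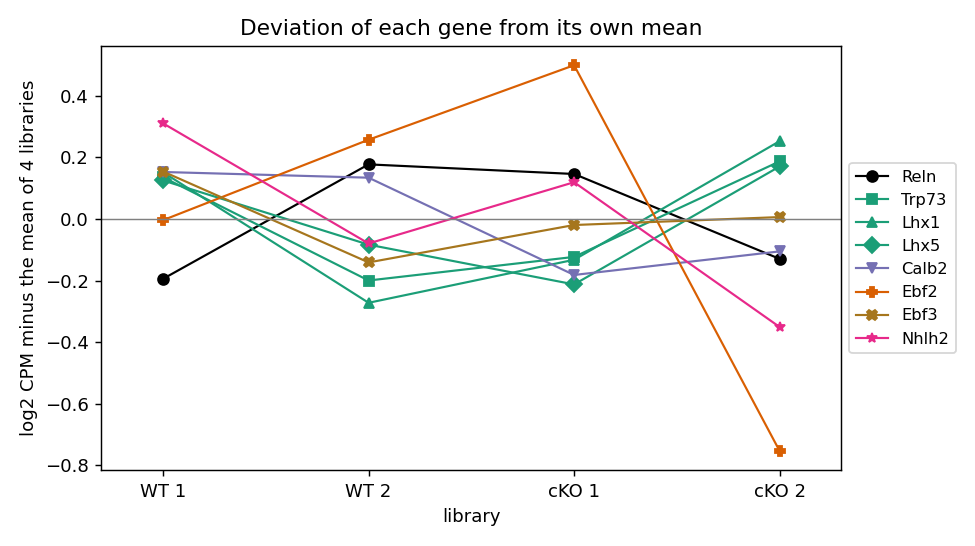
Log2 CPM of each gene minus its mean over the 4 libraries (vertical axis) in each library (horizontal axis); lines only join the points of a gene. Trp73, Lhx1 and Lhx5 are above their means in WT 1 and cKO 2 and below in WT 2 and cKO 1, Reln is the reverse, and Ebf2 has the widest range, from -0.75 in cKO 2 to 0.50 in cKO 1.

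The 5 genes closest to the mean profile of the 8, which was nearly flat (log2 deviations of 0.10 and -0.03 in WT and of 0.01 and -0.09 in cKO), were Morf4l1, Zdhhc2, St6galnac3, Ptn and Oxnad1. Their RMS distances over the 4 libraries were 0.0076 to 0.011.

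For Reln and Trp73, the genes with opposite profiles, the 250 bases before a RefSeq start (GRCm38.p6) are shown from 5′ to 3′ on the gene's minus strand. The Reln window is chr5:22344706-22344955. Trp73 has 2 RefSeq starts 42702 bases apart, at 154139875 and at 154097173, and the window shown, chr4:154097174-154097423, precedes the internal one, which gives the N-terminally shortened form of p73 known from Cajal-Retzius cells. Of 7 annotated Trp73 transcripts, 4 start within 10 bases of it, and a gene-level count adds the transcripts of both starts. Capitals mark matches to CCCNNGGG, the core of the EBF motif, or CANNTG, the E-box bound by basic helix-loop-helix factors, both of which read the same on either strand.
Reln: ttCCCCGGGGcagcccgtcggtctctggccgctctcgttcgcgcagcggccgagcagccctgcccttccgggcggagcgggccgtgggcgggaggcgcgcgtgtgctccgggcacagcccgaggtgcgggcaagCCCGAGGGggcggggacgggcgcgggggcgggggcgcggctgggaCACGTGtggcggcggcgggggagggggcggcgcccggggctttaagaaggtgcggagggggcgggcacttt
Trp73: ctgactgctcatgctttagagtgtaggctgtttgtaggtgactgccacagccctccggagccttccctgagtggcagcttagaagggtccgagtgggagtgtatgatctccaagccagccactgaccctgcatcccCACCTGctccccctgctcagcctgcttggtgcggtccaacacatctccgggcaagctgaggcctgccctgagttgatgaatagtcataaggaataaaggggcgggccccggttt
The Reln window held 2 matches to CCCNNGGG and 1 to CANNTG. The Trp73 window held 1 match, to CANNTG. Windows were at hand for 5 of the 8 genes (6 windows, 2 of them for Trp73). CCCNNGGG was found in 2 of the 6, against 11.8% of 32851 windows of that length, and CANNTG in 4 of the 6, against 66.2%. The windows were 80.0% GC for Reln and 58.4% for this Trp73 start. Both windows with CCCNNGGG, those of Reln and Ebf3, were 80.0% GC. The shares over all windows were not matched for GC, so they do not show whether the members hold more matches than similar windows.

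The pairs Lhx1 and Lhx5 and Ebf2 and Ebf3 each come from the same gene family, and several members have paralogs elsewhere. Identical coding stretches between related genes were therefore measured. In the longest coding transcripts (GENCODE M21, GRCm38), none of 10 pairs of related genes shared an identical window of 50 bases. The longest identical runs between members are shown here in full. They are exact matches only, so they set no limit on reads aligned with mismatches or outside these coding sequences.
Lhx1 and Lhx5: cacctcaactgcttcacctg
Ebf2 and Ebf3: ctggcgctctacgacaggcaggg
The 20 bases common to Lhx1 and Lhx5 lie at chr11:84522187-84522206 (minus strand) and chr5:120434573-120434592 (plus strand). The 23 bases common to Ebf2 and Ebf3 lie at chr14:67237528-67237550 (plus strand) and chr7:137313573-137313595 (minus strand). Over all 10 pairs the longest run was 27 bases, between Ebf3 and Ebf4, and the shortest 12, between Calb2 and Calb1. Genes on the opposite strand shared exon bases with Reln, Trp73, Lhx5, Ebf2 and Ebf3, from 69 bases (Lhx5 with Gm27199) to 424 bases (Ebf2 with Gm10860). The strand setting of the counting is not given in the sources used here, so reads there cannot be assigned. The partners' own counts were low, at most 17 in any library, which was Gm27199 in cKO 1 against 178 for Lhx5.

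The paralogs give the same families outside the 8 genes. Of 6 paralogs, 5 were tested, 0 were called, and the median log2 fold change was 0.08 (-0.048 without cKO 2, 0.19 without cKO 1, and -0.071 over all 6 with no filter). The most abundant were Trp53 (log2 fold change 0.15), Nhlh1 (0.14), a close relative of Nhlh2, and Ebf1 (-0.23), while Trp63 had at most 4 counts in a library and was not tested. Calb1, which encodes calbindin and was named after its values were seen, was at 12.4 and 13.8 CPM in WT and at 8.14 and 9.23 CPM in cKO. Both WT libraries were higher, as for Calb2 and 10.8% of all genes. The log2 fold change was -0.59 (SE 0.23), below the 2-fold limit. Its unadjusted p was 0.0341 and its adjusted p 0.9999 in edgeR's quasi-likelihood test, and the unadjusted p of DESeq2 was 0.056. With 1 library left out the log2 fold change ran from -0.67 (without cKO 2) to -0.50 (without WT 2).

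Downstream of Reln, no gene of reelin reception and signalling passed the test. All 21 were tested, 0 were called and 0 had an unadjusted p under 0.05, with log2 fold changes from -0.33 to 0.15 and a median of -0.06 (15 below 0 and 6 above). The median was -0.20 without cKO 1 and 0.03 without cKO 2. The receptor gene Lrp8 was at 270 and 311 CPM in WT and 316 and 279 CPM in cKO, and the adaptor gene Dab1 at 121 and 154 CPM in WT and 154 and 120 CPM in cKO. In both the groups overlapped, and WT 2 and cKO 1 were higher than WT 1 and cKO 2, as for Reln. The other receptor gene, Vldlr, was at 50.5 and 49.1 CPM in WT and 48.8 and 30.6 CPM in cKO, a log2 fold change of -0.33 (unadjusted p = 0.191 in edgeR's quasi-likelihood test), with cKO 2 apart from the other 3 libraries. Lrp8, Dab1 and Vldlr were named after seeing their values. Per kilobase of exon the highest of the pathway were Pafah1b3, a catalytic subunit of the platelet-activating factor acetylhydrolase that contains LIS1 (76.8 CPM per kilobase, log2 fold change 0.15), Rnf7, part of the ubiquitin ligase that degrades phosphorylated DAB1 (62.5, log2 fold change 0.02) and Fyn, a kinase that phosphorylates DAB1 (57.9, log2 fold change -0.06).

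The cues that guide Cajal-Retzius cells along the cortical surface, such as the chemokine Cxcl12 from the meninges and its receptor Cxcr4, also had 0 of 8 genes called, with a median log2 fold change of -0.11. The median was -0.0046 without WT 1, -0.12 without WT 2, -0.035 without cKO 1 and -0.15 without cKO 2. In the same order 4, 6, 4 and 7 of the 8 genes were below 0. Cxcr4 was at 31.5 and 26.7 CPM in WT and 25.4 and 27.6 CPM in cKO. Cxcl12 was at 64.2 and 39.4 CPM in WT and 46.7 and 34.1 CPM in cKO, highest in WT 1. Both were named after seeing their values. The most abundant of the list were the ephrin receptor genes Ephb2 (log2 fold change 0.06) and Ephb1 (-0.01) and the semaphorin receptor gene Plxnd1 (0.03).

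Among 15 regulators of early cortical fate, which set how much tissue becomes hem and Cajal-Retzius cells, 1 was called, against 0.811% of all genes. The median log2 fold change was 0.01, or -0.12 without cKO 1, 0.079 without WT 1 and -0.0032 with the replicate block. The called gene was Otx2, a homeobox gene of the dorsal midline and choroid plexus, at 20.6 and 6.73 CPM in WT and 3.88 and 7.00 CPM in cKO (log2 fold change -1.33, unadjusted p = 0.0328 in edgeR's quasi-likelihood test). WT 2 lay within the range of cKO, and the call was lost without WT 1 (log2 fold change -0.31) and without cKO 1 (-0.96). Nr2f2, a nuclear receptor gene named after its values were seen, was at 125 and 98.5 CPM in WT and 64.1 and 80.4 CPM in cKO. Both cKO libraries were below both WT libraries, as in 10.8% of all genes. The log2 fold change was -0.63, short of 2-fold (unadjusted p = 0.00924 and adjusted p = 0.9999 in edgeR's quasi-likelihood test). With 1 library left out it ran from -0.79 (without cKO 2) to -0.45 (without WT 1). Among the most abundant regulators were Lhx2 (log2 fold change 0.19) and Tbr1 (-0.11).

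The places where Cajal-Retzius cells arise were followed by their own markers. Markers of the cortical hem, a source of Wnt and Bmp signals, summed to 128 CPM in WT 1, while WT 2 was at 42.5 CPM and the cKO libraries at 57.5 and 47.8 CPM. All 12 hem markers tested were below 0, with a median log2 fold change of -0.97, but 0 were called. Without WT 1 the median was 1.04, with 11 of 12 above 0 and 2 called higher in cKO (0.34% of all genes). Without WT 2 it was -1.79, with 11 of 14 called lower (2.44% of all genes), so the direction turned with the WT library used. Without WT 2 the filter could keep a gene for its level in WT 1 alone, and 14 hem markers were tested in place of 12. Msx2 came in this way, with 21 counts in WT 1 and 1, 1 and 2 in WT 2, cKO 1 and cKO 2. The markers tested there were partly picked by the filter, so their calls cannot be compared with those of the main test. With the replicate block the median was -0.63, with 11 of 12 below 0 and 1 called lower (1.09% of all genes), and with no filter 6 of 14 were called lower (1.22% of all genes). The pallial-subpallial border list summed to 49.2 to 52.7 CPM in the 4 libraries (0 of 5 called, median log2 fold change -0.18, or -0.016 without WT 2 and -0.49 without cKO 1). The rostral midline and septum list was at 32.0 CPM in WT 1 and at 15.5 to 23.4 CPM in the others (0 of 3 tested genes called, median -0.27). Its median was 0.23 over 3 genes without WT 1, -0.94 over 4 genes without WT 2 and -0.091 with the replicate block. Here too the direction turned with the WT library used. The thalamic eminence and diencephalon list was at 44.1 to 65.2 CPM (0 of 5 called, median -0.24, or -0.36 without WT 2).

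**Figure D4:**
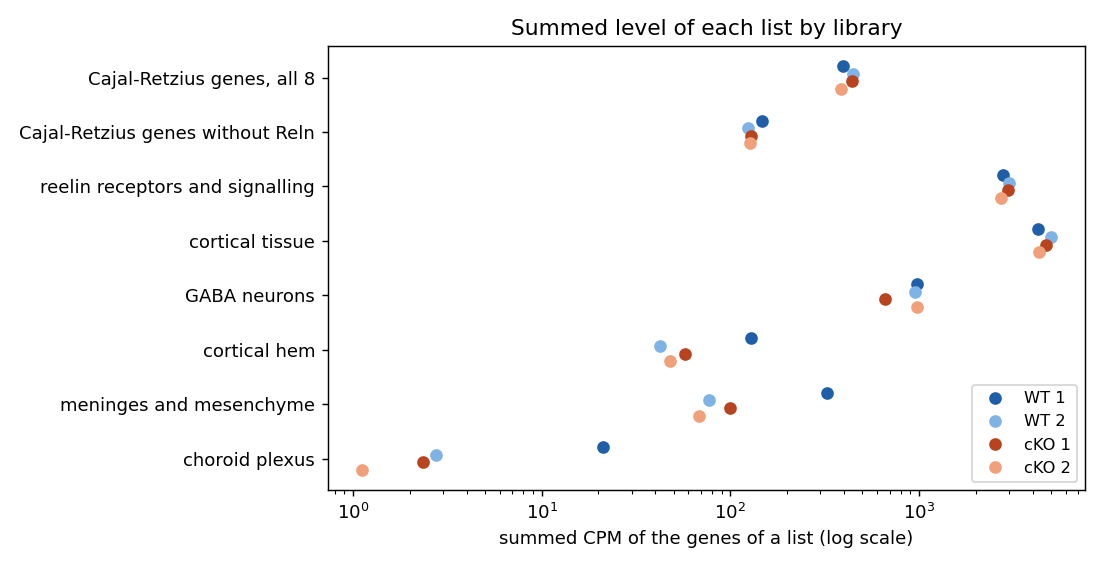
Summed CPM of the genes of each list (horizontal axis, log scale) in the 4 libraries (coloured points, offset vertically only to keep them apart). The Cajal-Retzius genes span 387 to 446 CPM, while hem, meninges and choroid plexus markers are highest in WT 1.

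Tissue next to the medial cortex followed the same library. The meninges and mesenchyme markers summed to 325 CPM in WT 1 and to 67.8 to 100.01 CPM in the others. Of these, 2 of 9 were called lower in cKO, the collagen genes Col1a1 (log2 fold change -2.08) and Col1a2 (-1.59). Over all genes 0.811% were called in either direction. DESeq2 called 0 of 9, and Col1a2 was also lost with RLE normalization and with 10 or more counts asked of each library. The count was 5 of 9 with the replicate block, 6 of 9 with no filter, 8 of 9 without WT 2 and 4 of 9 without cKO 1 (2.85% of all genes). Of 6 choroid plexus markers, 4 were analysed and 2 tested. They summed to 21.2 CPM in WT 1 and 1.12 to 2.77 CPM in the others, and both genes tested, Htr2c (-3.44) and Aqp1 (-2.66), were called lower. Without WT 1 none of these 4 genes was called, with log2 fold changes of -0.11, 0.21, -1.66 and -0.67, and without cKO 2 only Htr2c was. Htr2c fell short of 10 counts in cKO 1 (4) and cKO 2 (7), so the filter kept it only through its higher WT levels. That both choroid plexus genes tested were called was therefore partly set by the filter. With 10 or more counts asked of each library no choroid plexus marker was tested, and with no filter 3 of 4 were called lower. Among the members, Nhlh2, Ebf3 and Calb2 were highest in WT 1, whereas Reln, the main product of the cells, was lowest there. Without WT 1 the median over the 8 genes was 0.03 and 0 of 8 were called. The part of hem, meninges and choroid plexus tissue in the members' levels was not tested.

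GABA neurons, which can hold calretinin and reelin later in life, were followed by 8 markers. Their sum was 970 and 950 CPM in WT and 659 and 978 CPM in cKO, lowest in cKO 1, and 0 of 8 were called (median log2 fold change -0.20, or 0.12 without cKO 1 and -0.44 without cKO 2). Gad1, the gene of a GABA-synthesizing enzyme and named after its values were seen, was at 79.8 and 73.4 CPM in WT and 57.5 and 54.9 CPM in cKO, without overlap (log2 fold change -0.45, unadjusted p = 0.0179 and adjusted p = 0.9999 in edgeR's quasi-likelihood test). The part of GABA neurons in the Calb2 level was not tested. None of the 7 midbrain and hindbrain markers was analysed here.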

How the data were processed

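Total RNA of E13 tissue was sequenced in 4 libraries, 2 labelled WT and 2 labelled cKO. The authors deposited raw counts of reads per gene. The submitters' processing notes name TopHat2 2.0.12, Bowtie2 2.2.3, HTSeq 0.6.0 and mm9, but 97.2% of the 27232 genes also listed by GENCODE M21 share its start or end to within 1 base, so positions were read as GRCm38. Of 27304 rows, 11 (0.0403%) without a gene were left out. The authors' fold changes, p-values and mean normalized counts, and their second table of cKO 1 and WT 1, were not used.

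Counts were tested with edgeR 4.0.16 in R 4.3.3 (filterByExpr, TMM, quasi-likelihood test, no covariate, Benjamini-Hochberg adjustment over 16145 genes) after a check on simulated counts. The common biological CV was 0.187. Genes were called by the study's rule, at least 2-fold with an unadjusted p of at most 0.05. Alternatives were DESeq2 1.42.0, RLE and upper-quartile normalization, other filters, a replicate block, a p of 0.01 and each library left out. Intervals of single counts are exact Poisson 95% intervals. Sums and RMS distances use TMM-scaled CPM.

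The 8 genes and the lists (reelin receptors and signalling, paralogs of the members, regulators of early cortical fate, migration cues, cortical hem, pallial-subpallial border, rostral midline and septum, thalamic eminence and diencephalon, midbrain and hindbrain, GABA neurons, meninges and mesenchyme, choroid plexus, cortical tissue) were chosen with earlier results of these data known. Named are the 8 members, called genes of a list, the 3 most abundant genes of each pathway list (per kilobase for reelin signalling), Emx1, Neurod6, Tmem173, the 5 genes nearest in pattern, and those said to be named after their values were seen. A gene that the rule names is not reported here. Promoter windows are from RefSeq.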

Additional observations from a re-analysis of the deposited data

How the results depend on the processing

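The count of Cajal-Retzius genes called was 0 of 8 under each alternative. Under the 6 settings that kept all 4 libraries, none of the 48 log2 fold changes of the members changed sign. With a library left out, 12 of 32 changed sign. Without WT 1 these were Reln, Lhx5 and Ebf3, without WT 2 Trp73, Lhx1 and Ebf2, without cKO 1 Reln and Lhx5, and without cKO 2 Trp73, Lhx1, Ebf2 and Nhlh2. The lowest and highest values were -0.16 and 0.22 for Reln, -0.087 and 0.24 for Trp73, -0.074 and 0.35 for Lhx1, -0.22 and 0.15 for Lhx5, -0.31 and -0.25 for Calb2, -0.89 and 0.38 for Ebf2, -0.15 and 0.13 for Ebf3, and -0.48 and 0.0049 for Nhlh2. With 1 library left in a group, that library is assumed to vary like the other group. The median over the members ran from -0.10 (without WT 2) to 0.03 (without WT 1), and the log2 ratio of the summed level, -0.02 with all libraries, from -0.12 (without cKO 1) to 0.07 (without cKO 2).

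The number of genes called in the whole table was 131, and it was 405 with no filter, 72 with 10 or more counts asked of each library, 208 with the replicate block, 65 with DESeq2 and 14 at p of at most 0.01. It ran from 104 to 531 with 1 library left out, with 476 without WT 2 and 531 without cKO 1. Genes with an adjusted p under 0.05, 0 at first, numbered 65 with no filter, 5 with the replicate block, 7 without WT 1, 116 without WT 2 and 105 without cKO 1, and 0 with DESeq2, where 127 had an unadjusted p under 0.05.

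The labels number the libraries 1 and 2 in each group but do not say that a number marks a shared litter. The numbers were therefore not taken to pair the samples. Same-numbered libraries had a correlation of deviations of 0.10 across genes, which over 2 pairs cannot decide whether a litter was shared. With the replicate block the log2 fold change of Calb2 was -0.29 and that of Ebf2 -0.23, and the block called none of the 8. Of the 8 genes, Ebf2 and Lhx1 had the largest counting errors, 9.25% and 8.54%, with 65 to 161 counts per library. Their CVs over the 4 libraries were larger, 33.5% and 16.8%, so depth alone did not set their spread.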
